A study of Mus musculus with 89 samples.

Results

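The genes that encode the subunits of the oxidative phosphorylation complexes were followed through the RNA-seq of mouse embryonic stem cells (ESCs) that kept or lost the orphan nuclear receptors Esrrb and Nr5a2. Members were taken by name, with no use of their values: symbols of the Nduf a, b, c, s and v series followed by a digit, Sdha to Sdhd, Uqcr, Cyc1, Cox4 to Cox8, Atp5, and the mt-Nd, mt-Co, mt-Atp and mt-Cytb genes, without pseudogenes. This gave 98 of the 54146 genes in the tables, 85 encoded in the nucleus (36 of complex I, 4 of complex II, 9 of complex III, 19 of complex IV and 17 of complex V) and 13 in the mitochondrial genome (7 of complex I, 1 of complex III, 3 of complex IV and 2 of complex V). Ndufa4 was counted with complex IV. All cells were EKOiE ESCs, which lack a functional endogenous Esrrb gene and express Esrrb from a transgene induced by doxycycline (Dox), and EKOiE NrKO cells are the same line with the exon for the Nr5a2 DNA-binding domain disrupted on both alleles. The 4 states were EKOiE under 1 µg/ml Dox (+E+N), EKOiE after 2 days of Dox withdrawal (−E), EKOiE NrKO with Dox (−N) and EKOiE NrKO after 2 days of withdrawal (−E−N). Each state was grown in serum with LIF (FCS/LIF, 2 replicates) or in the Mek and Gsk3 inhibitors with LIF (2i/LIF, 3 replicates), which gave 8 groups and 20 libraries. NrKO cells were derived as clones. The library labels do not give the clone, the study's methods name clone 4 for the RNA-seq of NrKO cells, and the absence of Nr5a2 cannot be told apart from other differences between the lines.

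Oxidative phosphorylation couples the oxidation of NADH and succinate to the synthesis of ATP in the inner mitochondrial membrane. Complexes I, III and IV pass electrons towards oxygen and pump protons, complex II feeds electrons from succinate without pumping, and complex V, the ATP synthase, uses the proton gradient. Complexes I, III, IV and V combine subunits from both genomes, whereas complex II is entirely nuclear. The mitochondrial genes are transcribed as long precursors that are then cut into single messages, and their transcription does not use RNA polymerase II. ESCs in 2i/LIF are usually described as using both glycolysis and respiration, and the related receptors Esrra and Esrrg are known as regulators of these genes in heart and muscle.

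Library totals ran from 36514172 to 45443379 estimated counts for FCS/LIF and from 26653035 to 32526534 for 2i/LIF. Esrrb, in TMM-scaled counts per 1000000 (CPM, the scale of all levels below unless TPM is named), ranged from 271 to 352 for +E+N, from 65.1 to 74.2 for −E, from 219 to 259 for −N and from 28.9 to 31.3 for −E−N of FCS/LIF. In 2i/LIF these ranges were 515 to 608, 380 to 441, 415 to 530 and 104 to 171. The fall of Esrrb on Dox withdrawal in 2i/LIF EKOiE cells therefore did not pass the test (log2 fold change −0.46, adjusted p = 0.116), whereas in FCS/LIF it did (−2.18, adjusted p = 2.75e-05). Whether the Esrrb counts hold message from the disrupted endogenous alleles beside that of the transgene is not given in the sources used here, and counts do not measure the protein. Nr5a2 counts do include message from the disrupted alleles. Nr5a2 read between 61.8 and 80.1 CPM in +E+N and between 63.9 and 78.4 in −N of 2i/LIF (−0.05, adjusted p = 0.924), so it does not check the −N label there, and it read between 42.2 and 52.2 in −E (−0.59, adjusted p = 0.129). In FCS/LIF it read 39.8 and 36.1 in +E+N, 27.1 and 25.5 in −N (−0.55, adjusted p = 0.0211) and 19.6 and 19.2 in −E (−0.98, adjusted p = 0.000133). Summed CPM of 8 ESC markers ran from 3323 to 3715 for +E+N against 2029 to 2253 for −E−N of FCS/LIF, and from 3255 to 3461 against 1840 to 2313 in 2i/LIF. Over 6 trophoblast markers the sum ran from 94.4 to 105 against 255 to 347 in FCS/LIF, and from 12.3 to 15.9 against 70.2 to 102 in 2i/LIF. Over 6 primitive endoderm markers it ran from 26.3 to 33.6 for +E+N, from 51.8 to 52.6 for −E and from 54.4 to 56.9 for −E−N of FCS/LIF, and from 5.20 to 8.18 for +E+N against 11.3 to 14.1 for −E−N of 2i/LIF. Fibroblast markers (7 genes) summed to at most 13.7 in any library, and Dcn and Postn had no count in 2i/LIF +E+N, −E or −N.

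In +E+N, the level per length differed widely between nuclear members. Atp5b, the catalytic beta subunit of ATP synthase, was highest in both media on the length-corrected TPM scale (3694 in FCS/LIF and 3115 in 2i/LIF), followed by Cox7c (1960 and 1485). At the other end Cox6a2, Cox8b and Cox8c, known as heart, muscle or testis forms, stayed below the count filter in both media, as did a second Atp5o identifier with no count. Cox4i2 and Cox7b2 were below it in FCS/LIF alone. After the filter 92 members could be tested in FCS/LIF (79 nuclear) and 94 in 2i/LIF (81 nuclear). The nuclear members together took 1.08% to 1.43% of a library's counts, and the 13 mitochondrial genes 2.05% to 3.40%.

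In 2i/LIF the calls against +E+N came from −E−N, which differs from +E+N in both the line and Dox. Calls required an adjusted p under 0.01 in edgeR's quasi-likelihood fit over all genes and a change of more than 1.5-fold. By these limits 6 of 94 members were called in −E−N against +E+N, all lower, where 18.6% of all genes tested were called and 9.56% were called lower. The called members came from every complex: Ndufb4 of complex I, Sdhb of complex II, Uqcrq of complex III, Cox5a and Cox7a1 of complex IV and Atp5g1 of complex V. With the looser rule of an adjusted p under 0.05 and no fold limit, 39 members were lower, against 21% of all genes lower, and 2 were higher, Sdha and Ndufb11, against 19.9% of all genes higher. Of the 39, 38 were nuclear (of 81) and 1 was mitochondrial (of 13). The median log2 fold change was −0.22 over nuclear members, with 71 of 81 below 0, −0.12 over 78 mitochondrial ribosomal protein genes and 0.01 over all genes tested, so most of the nuclear members were shifted by an amount well under the 1.5-fold limit. These are bulk samples, in which fewer cells of a type and less RNA per cell cannot be told apart. Markers moved in the same libraries: of 8 ESC markers 4 were called lower and 1 higher, of 4 tested trophoblast markers 3 higher and 1 lower, and of 5 tested primitive endoderm markers 2 higher and 1 lower, and their part in the result was not tested.

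Taking the called members in the order of the chain, Ndufb4, an accessory subunit of the membrane arm of complex I, stood at 32.6, 28.7 and 33.2 CPM in the 3 +E+N libraries and at 19.3, 18.9 and 18.1 in −E−N. The ranges did not overlap, and the −E and −N libraries (between 23.8 and 32.2) lay above every −E−N library (log2 fold change of −E−N −0.73 ± 0.09 SE, adjusted p = 5.43e-05). Sdhb, the iron-sulphur subunit of succinate dehydrogenase, stood at 109, 110 and 101 CPM in +E+N and at 73.2, 65.4 and 63.7 in −E−N. No −E−N library reached the +E+N range (−0.65 ± 0.08, adjusted p = 4.6e-05). Uqcrq, a small subunit of complex III near the cytochrome b core, read 138, 151 and 146 CPM against 91.8, 84.3 and 68.2, again without overlap (−0.82 ± 0.10, adjusted p = 4.48e-05).

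Cox5a, a nuclear subunit that lies against the catalytic core of complex IV, read 259, 268 and 263 CPM in +E+N and 158, 155 and 139 in −E−N. This was the call with the smallest adjusted p among the members in this comparison (−0.79 ± 0.07, adjusted p = 2.29e-06), and −E libraries (210, 191 and 184) lay between both groups. Cox7a1, the form of subunit VIIa best known from heart and skeletal muscle, had the largest fold, from 12.3, 12.7 and 18.0 CPM to 3.02, 4.87 and 3.92. Each −E−N value was under every +E+N value (−1.85 ± 0.20, adjusted p = 1.64e-05). Its CPM was the lowest among the called members. On the length-corrected TPM scale its mean in 2i/LIF +E+N, 115, was above that of Ndufb4, 51.6. Atp5g1, which encodes the ring-forming c subunit of ATP synthase, read 302, 280 and 277 CPM against 186, 179 and 133. Its lowest −E−N value was that of replicate 3, and the groups did not overlap (−0.77 ± 0.13, adjusted p = 0.000376).

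Esrrb and Nr5a2 recognise the element TCAAGGTCA or its form with C at the seventh base, and the sequence upstream of the called genes is shown for that reason. Promoters came from RefSeq (GRCm38.p6, the patched mm10 assembly), and 68 of 84 nuclear symbols had an entry. In the 250 bases before the start, the element TCAAGGTCA was present for 1 member, Atp5g3, and for 0.422% of 27025 genes, on either strand. The form TCAAGGCCA was present for 0 members of 68 and for 0.607% of genes, and the core AAGGTCA, which TCAAGGTCA contains, for 5 members (Atp5g3, Atp5l, Ndufb2, Ndufb4 and Ndufs5) and 4.7% of genes. Among strings of other factors, the palindromic Nrf1 string was present for 4 members (0.877% of genes), the Ets string CCGGAAG bound by Gabpa for 12 (7.83%), the Sp1 string GGGCGG for 25 (35.4%) and the Nfy string CCAAT for 30 (37.5%). The further strings were AAGGCCA (4 members, 6.01% of genes), CGCATGC, which the Nrf1 palindrome contains (9 members, 3.43%), and the Yy1 string AAGATGGC (1 member, 1.83%). The 10 strings were chosen after the members' results were known, and a match of letters is a description of the window. In the stretches printed here, 5′ to 3′, capitals mark any of the 10 strings on either strand. The stretches end where the outermost annotated transcript begins, except that of Cox5a, which ends with the 250-base window, short of that point. Those of the called members with an entry and of Atp5g3 follow.
Ndufb4, chr16:37654454-37654618, minus strand: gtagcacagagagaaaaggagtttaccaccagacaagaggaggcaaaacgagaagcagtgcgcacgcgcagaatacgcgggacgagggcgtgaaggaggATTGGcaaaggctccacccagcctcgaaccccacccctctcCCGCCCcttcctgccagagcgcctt
Sdhb, chr4:140961021-140961202, plus strand: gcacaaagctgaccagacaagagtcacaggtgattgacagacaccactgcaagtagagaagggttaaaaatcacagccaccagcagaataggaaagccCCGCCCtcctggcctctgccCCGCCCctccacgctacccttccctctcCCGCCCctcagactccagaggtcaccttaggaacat
Cox5a, chr9:57520982-57521231, plus strand: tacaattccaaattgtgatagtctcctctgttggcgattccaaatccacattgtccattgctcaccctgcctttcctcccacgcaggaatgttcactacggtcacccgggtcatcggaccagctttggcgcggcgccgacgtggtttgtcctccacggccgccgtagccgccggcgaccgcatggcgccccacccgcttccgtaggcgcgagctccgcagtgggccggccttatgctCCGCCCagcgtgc
Cox7a1, chr7:30183921-30184143, plus strand: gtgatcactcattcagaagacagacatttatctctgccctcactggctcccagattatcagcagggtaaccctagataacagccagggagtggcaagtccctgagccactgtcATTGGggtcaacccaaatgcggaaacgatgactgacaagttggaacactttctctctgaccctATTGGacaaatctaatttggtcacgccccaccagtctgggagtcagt
Atp5g1, chr11:96075671-96075881, minus strand: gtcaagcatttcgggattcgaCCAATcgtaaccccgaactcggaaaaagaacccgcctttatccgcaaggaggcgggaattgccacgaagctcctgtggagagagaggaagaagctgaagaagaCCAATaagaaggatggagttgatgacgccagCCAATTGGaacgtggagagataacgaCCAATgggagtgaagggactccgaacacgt
Atp5g3, chr2:73911327-73911576, minus strand: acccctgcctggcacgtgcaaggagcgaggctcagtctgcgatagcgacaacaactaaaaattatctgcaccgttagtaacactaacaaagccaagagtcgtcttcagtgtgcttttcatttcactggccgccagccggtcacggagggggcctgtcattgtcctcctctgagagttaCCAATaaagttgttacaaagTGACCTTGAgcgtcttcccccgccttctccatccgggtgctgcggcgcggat
In Atp5g3 the capitals TGACCTTGA are the reverse complement of the element, at −52 to −44 from the start. The AAGGTCA of Ndufb4 lies at −55 to −49, within a transcribed stretch left out of the print, and Uqcrq had no entry. In Atp5g1, which has 5 CCAAT strings counting both strands, those in CCAATTGG overlap.

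**Figure D1:**
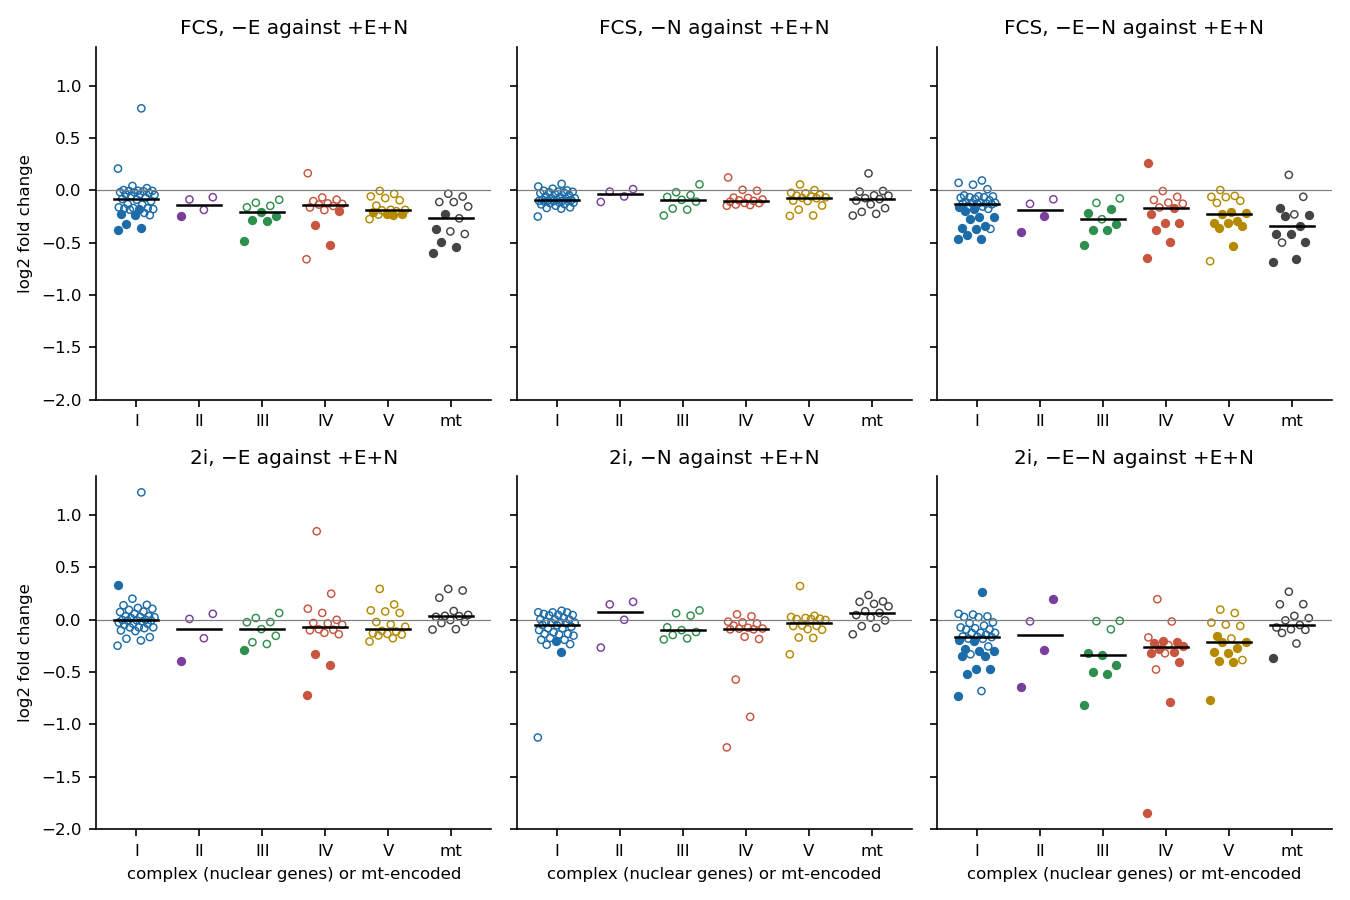
Log2 fold change of every tested member (points, filled where the adjusted p was under 0.05) in each state against +E+N, by complex and genome, in FCS/LIF (top) and 2i/LIF (bottom), with black lines at the medians. In 2i/LIF −E−N most nuclear members lie below 0 (71 of 81), with Cox7a1 lowest at −1.85, while the mitochondrial genes lie on both sides of 0.

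Fewer members passed in the single states of 2i/LIF, and the counts depended on whether libraries were paired by replicate number. Deviations of same-numbered libraries from their group means correlated above 0.1 for all 3 numbers between +E+N and −E and between +E+N and −N. When replicate number was added as a block, lower nuclear members at an adjusted p under 0.05 were 12 in −E (8.9% of all genes lower) and 14 in −N (12.4% of all genes lower), against 5 and 2 without it, and at both limits Ndufa4l2 was called in −E and no member in −N. The values that follow are without the block. In −E, 0 of 94 members were called by edgeR at both limits (1.55% of all genes were called), 18 had an unadjusted p under 0.05 (20.3% of all genes), and DESeq2 called 1, Cox7a1. At an adjusted p under 0.05, 5 were lower (3.82% of all genes lower) and 1 higher (2.31% of all genes higher). Cox5a read 210, 191 and 184 CPM, below each +E+N library (−0.43 ± 0.07, adjusted p = 0.0027), and Sdhb 89.1, 80.6 and 73.9 (−0.39 ± 0.08, adjusted p = 0.0132). Cyc1, the cytochrome c1 of complex III, named after its values were seen, Cox6b2 and Cox7a1 completed the lower group, and Ndufv3, a small subunit of the NADH-oxidising arm of complex I, was higher (70.5, 85.2 and 77.2 against 61.9, 64.1 and 59.6 CPM; 0.33 ± 0.08, adjusted p = 0.0271). The count of lower nuclear members was 2 without +E+N replicate 2, without +E+N replicate 3 or without −E replicate 3, and 9 without −E replicate 1, and Ndufv3 no longer passed without any one of the +E+N libraries, −E replicate 2 or −E replicate 3.

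In −N in 2i/LIF, 0 of 94 members were called at both limits (3.65% of all genes were), DESeq2 called 0, and 14 had an unadjusted p under 0.05 (25% of all genes). The looser rule gave 2 lower members (5.91% of all genes lower), both of complex I: Ndufs8, an iron-sulphur subunit (−0.31 ± 0.07, adjusted p = 0.0197), and Ndufa6, named after its values were seen (−0.21 ± 0.06, adjusted p = 0.033). Ndufs8 read 48.0, 49.3 and 44.2 CPM in −N against 58.7, 56.5 and 59.0 in +E+N, with no overlap. That pair of calls was not stable to single libraries: the count was 0 without +E+N replicate 2, −N replicate 1 or −N replicate 3, 1 without +E+N replicate 3 or −N replicate 2, and between 3 and 6 without −E replicate 1, −E replicate 3, −E−N replicate 1 or −E−N replicate 3.

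Whether both changes together differed from the sum of the single ones was tested as an interaction. In 2i/LIF 0 of 94 members passed an adjusted p under 0.01, where 0.307% of all genes did. DESeq2 also gave 0, and 10 members had an unadjusted p under 0.05, all with a negative interaction (13.7% of all genes). In FCS/LIF 0 of 92 members passed (0.032% of all genes), DESeq2 gave 0, and 2 had an unadjusted p under 0.05 (8.85% of all genes). The median interaction in 2i/LIF was −0.11 over nuclear members (68 of 81 below 0) and −0.13 over mitochondrial members (13 of 13 below 0). It was −0.12 over the mitochondrial ribosomal protein genes and 0.0034 over all genes. In FCS/LIF the nuclear, mitochondrial and all-gene medians were 0.03, 0.07 and 0.02. These medians were not tested.

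In FCS/LIF the calls at both limits were mitochondrial. In −E−N, mt-Nd1 and mt-Nd3 were called lower, 2 of 92 members, where 18.8% of all genes were called and 6.4% called lower. In −E, mt-Nd3 alone was called lower, 1 of 92 members (5.76% of all genes called, 2.53% lower), a call lost without +E+N replicate 1 or −E replicate 2 and joined by Cox5a without +E+N replicate 2. In the −E libraries 3 of 8 ESC markers were called lower, 1 of 6 trophoblast markers lower and 1 of 6 primitive endoderm markers higher, and of 6 tested fibroblast markers 0 were called and 3 were higher at the looser rule. In −N, 0 of 92 were called by edgeR (0.173% of all genes), DESeq2 called 0, and 13 had an unadjusted p under 0.05, all lower (16.3% of all genes). Without +E+N replicate 2, Uqcrq and Atp5g1 joined the calls of −E−N, for 4 in all. With TPM values and limma, none of these calls was made. In the −E−N libraries of FCS/LIF 6 of 8 ESC markers were called lower, 5 of 6 trophoblast and 4 of 6 tested fibroblast markers were called higher, as was 1 of 6 primitive endoderm markers. The part of these markers in the members' values of either state was not tested.

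At the looser rule, FCS/LIF gave 24 lower members in −E (9.55% of all genes lower) and 45 lower with 1 higher, Cox6b2, in −E−N (21.8% of all genes lower, 24.9% higher). In −N it gave 0 (0.748% of all genes lower). With replicate number as a block, 4 nuclear and 1 mitochondrial members were lower in −N (2.87% of all genes lower). The lower members were 19 of 79 nuclear and 5 of 13 mitochondrial in −E, and 36 of 79 and 9 of 13 in −E−N. Uqcrq read 122 and 108 CPM in +E+N, 82.3 and 83.8 in −E and 78.1 and 84.0 in −E−N, with the −N libraries (102 and 105) between them (−E −0.49 ± 0.07, adjusted p = 0.00203, −E−N −0.52 ± 0.07, adjusted p = 0.000448). Cox5a read 167 and 148, 111 and 111, and 110 and 117 CPM in these states, with −N at 149 and 140 (−E −0.52 ± 0.07, adjusted p = 0.0014, −E−N −0.50 ± 0.07, adjusted p = 0.000575). For both genes the −E and −E−N libraries overlapped with each other and lay below all libraries with Dox. Ndufv3 was lower in −E−N (34.8 and 33.6 CPM against 50.5 and 43.1; −0.47 ± 0.10, adjusted p = 0.00415) but not in −E (45.5 and 42.5).

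These FCS/LIF counts moved with single libraries. The 19 lower nuclear members of −E became 3 without −E replicate 2, 4 without −E replicate 1, 6 without +E+N replicate 1 and 10 without either −E−N library, and the 5 mitochondrial ones became 3 without −E replicate 2. The 36 of −E−N became 22 without +E+N replicate 1 and 24 without −E−N replicate 1, and the 9 mitochondrial ones 5 without +E+N replicate 2 and 6 without −E−N replicate 2, and no member was higher when any library other than +E+N replicate 2 was left out. With limma on log2(TPM + 1), 13 nuclear members were lower and 7 higher in −E−N, and 3 lower and 1 higher in −E. On that scale the median over all genes tested moved up to 0.13 in −E−N and 0.09 in −E, and the nuclear median was 0.01 and −0.02. In 2i/LIF −E−N the same alternative gave 44 lower and 3 higher nuclear members, and leaving out single libraries gave between 29 and 44 lower and between 1 and 3 higher.

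**Figure D2:**
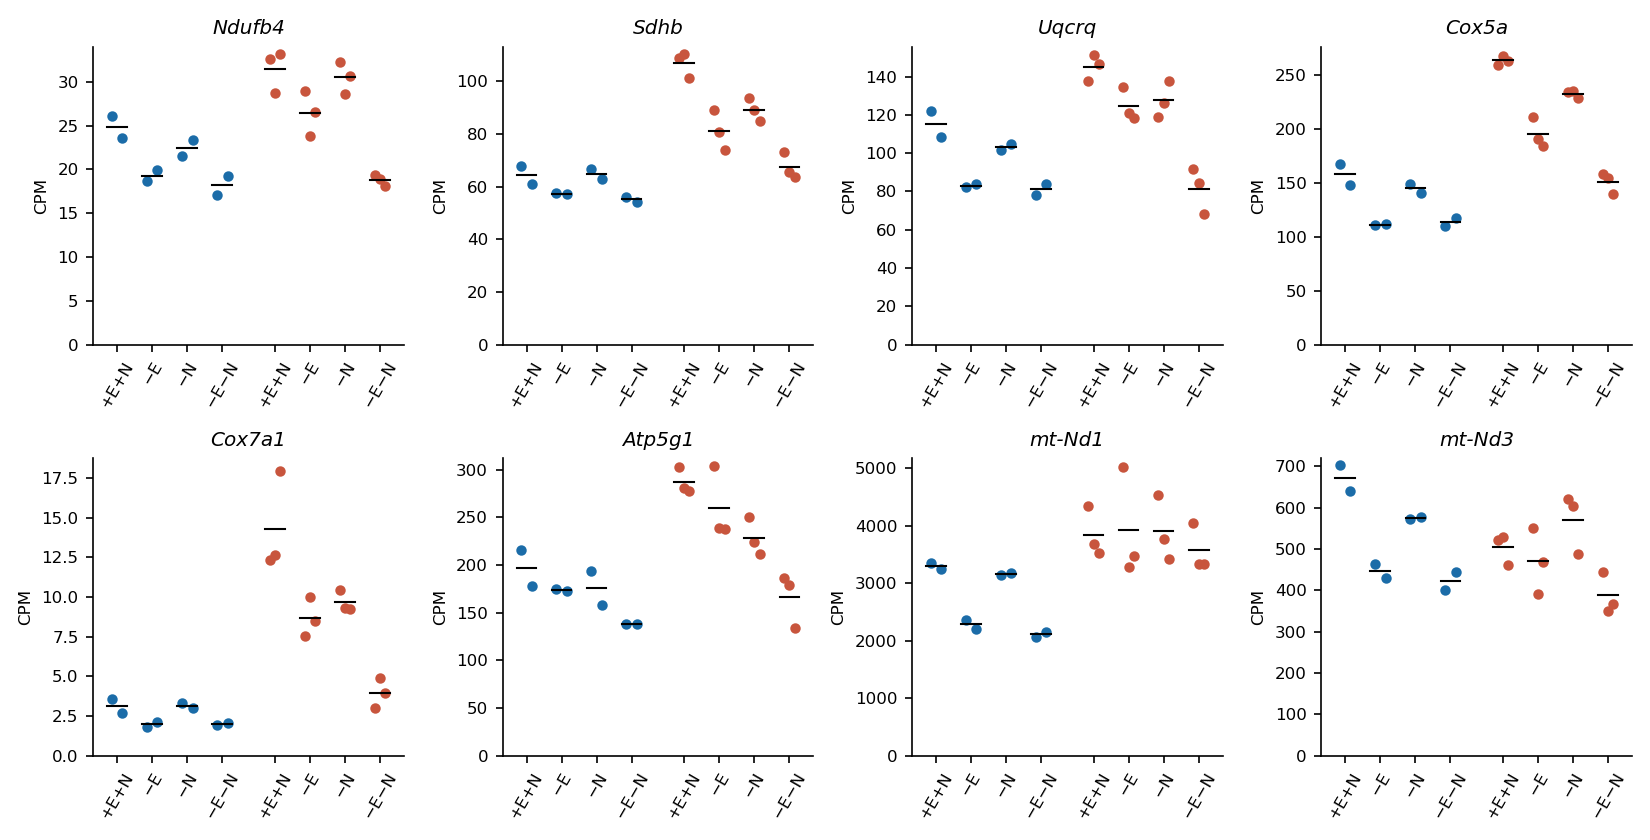
CPM of members called in a state against +E+N, in every library (points, FCS/LIF blue and 2i/LIF red) of the 8 groups, with black lines at the group means. The 3 −E−N libraries of 2i/LIF sit below the 3 +E+N libraries for Ndufb4, Sdhb, Uqcrq, Cox5a, Cox7a1 and Atp5g1, and mt-Nd1 and mt-Nd3 are lower after Dox withdrawal in FCS/LIF.

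Of the 13 mitochondrial genes, 9 were lower at the looser rule in FCS/LIF −E−N and 1 in 2i/LIF −E−N. With replicate number as a block, 11 were lower in FCS/LIF −E−N (25.2% of all genes lower). In 2i/LIF −E−N 2 were then lower and 1 higher (26.2% of all genes lower). When the difference between these responses was itself tested in the fit of all 20 libraries, 0 of the 13 passed an adjusted p under 0.01 and 1, mt-Atp6, passed 0.05 with a lower value (−0.53 ± 0.19, adjusted p = 0.0459, where 11.2% of all genes did). This depended on the fit. With the replicate block mt-Nd1, mt-Nd2 and mt-Co1 passed 0.01. With no filter on low counts mt-Atp6, mt-Atp8, mt-Co1, mt-Co3, mt-Nd1 and mt-Nd2 passed it. For mt-Nd1, a membrane subunit of complex I, the FCS/LIF libraries read 3343 and 3239 CPM (+E+N), 3146 and 3181 (−N), 2361 and 2210 (−E), and 2070 and 2158 (−E−N). Both withdrawn states lay below both Dox states with no overlap (−E −0.54 ± 0.05, adjusted p = 0.000224, −E−N −0.66 ± 0.05, adjusted p = 2.64e-05). In 2i/LIF the same gene read 4338, 3675 and 3524 in +E+N and 4045, 3334 and 3330 in −E−N, with overlapping ranges (−0.09 ± 0.16, adjusted p = 0.67). Each −E−N library of mt-Nd1 there was below the +E+N library of the same number. The difference between its responses, FCS/LIF minus 2i/LIF, was −0.53 ± 0.21 (adjusted p = 0.084) and did not pass in the main fit. mt-Nd3, another membrane subunit, read 702 and 640 CPM (+E+N), 572 and 578 (−N), 464 and 431 (−E) and 401 and 444 (−E−N) in FCS/LIF. Its withdrawn libraries were all below 500 and the others all above it (−E −0.60 ± 0.07, adjusted p = 0.000723, −E−N −0.69 ± 0.07, adjusted p = 0.00011). In 2i/LIF it was the mitochondrial gene that passed the looser rule in −E−N (522, 530 and 461 against 445, 350 and 367; −0.37 ± 0.13, adjusted p = 0.0414), a call lost without +E+N replicate 1 or 2, −N replicate 2, or −E−N replicate 2 or 3.

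Within FCS/LIF −E−N the 13 mitochondrial genes did not move as 1 unit. mt-Nd2 (−0.49 ± 0.06, adjusted p = 0.000325), mt-Atp6 (−0.42 ± 0.06, adjusted p = 0.000603), mt-Cytb (−0.24 ± 0.06, adjusted p = 0.00741), mt-Nd4, mt-Nd4l, mt-Nd5 and mt-Co3 also passed the looser rule. mt-Co1, the catalytic subunit of complex IV, was at 6654 and 7671 CPM in +E+N and 6758 and 7134 in −E−N, with full overlap (−0.06, adjusted p = 0.521). mt-Co2 was at 1512 and 1636 against 1417 and 2111 (0.15 ± 0.19, adjusted p = 0.559), and mt-Nd6 and mt-Atp8 did not pass either. mt-Nd6 (−0.23 ± 0.09, adjusted p = 0.0697) is encoded on the opposite strand to the other mitochondrial members. Replicate 1 of each state in 2i/LIF had the highest mitochondrial sum, between 31504 and 35955 CPM against between 27672 and 30651 in replicates 2 and 3.

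**Figure D3:**
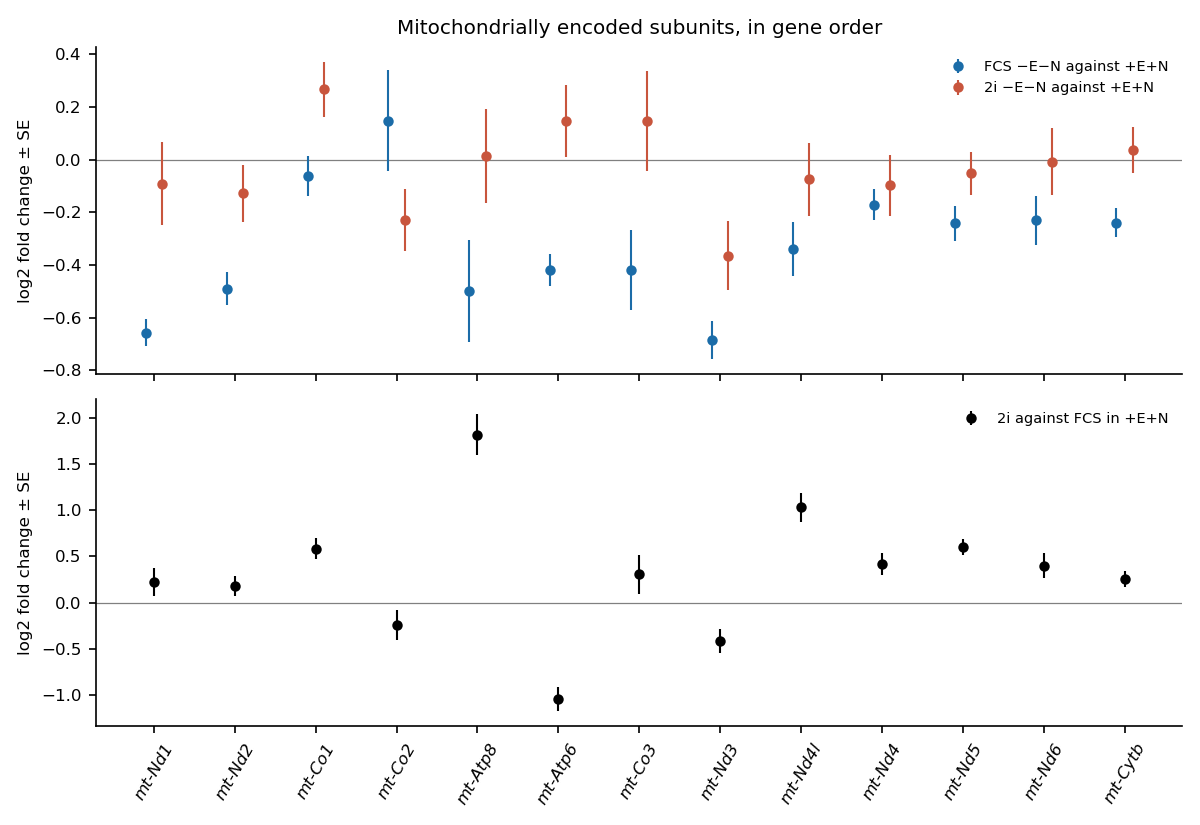
Log2 fold change of the 13 mitochondrial genes, in gene order along the horizontal axis, with bars of ± SE: −E−N against +E+N in FCS/LIF (blue) and 2i/LIF (red) above, and 2i/LIF against FCS/LIF in +E+N below. mt-Nd3 and mt-Nd1 are lowest in FCS/LIF −E−N (−0.69 and −0.66), and between media mt-Atp8 is highest at 1.82 and mt-Atp6 lowest at −1.05.

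Compared by complex, the nuclear members of complex III moved most in 2i/LIF −E−N, with a median log2 fold change of −0.34 and 9 of 9 below 0, followed by complex IV (−0.27), complex V (−0.22), complex I (−0.16) and complex II (−0.15). The shares passing the looser rule downwards were 6 of 9, 10 of 16, 9 of 16, 11 of 36 and 2 of 4, and the difference between complexes was not tested. Between the +E+N and −E−N means, the summed CPM of nuclear members changed by −21.5% for complex III, −18.8% for complex IV, −17.6% for complex V, −11.1% for complex I and −5.98% for complex II, with no overlap of libraries in any of them. In FCS/LIF −E−N the same sums changed by −15.2%, −13.8%, −15.5%, −8.12% and −9.52%, also without overlap. Summed as TPM, complexes I and II of FCS/LIF −E−N overlapped with +E+N. Complex I then ran from 5659 to 5919 against 5650 to 5703, and complex II from 369 to 387 against 383 to 387. The TPM mean of complex I was higher in −E−N (5789 against 5676), so its direction depended on the scale. That of complex II was lower (378 against 385). Over all nuclear members the 2i/LIF sums were 14702, 14302 and 14264 CPM (+E+N), 14509, 13045 and 13087 (−E), 14307, 13686 and 13717 (−N), and 12438, 12173 and 11518 (−E−N). The −E−N libraries were the lowest of the 12, and −E and −N overlapped with +E+N, though in each the library of a given replicate number was below the +E+N library of that number in 3 of 3 pairs. In FCS/LIF they were 12404 and 11693 (+E+N), 12000 and 11183 (−N), 10871 and 10877 (−E), and 10376 and 10467 (−E−N), with both withdrawn states below both Dox states. Their summed TPM in FCS/LIF ran from 28554 to 29203 for +E+N and from 28046 to 28403 for −N. For −E it ran from 27605 to 28202 and for −E−N from 27365 to 28196, so on that scale both withdrawn states overlapped with −N.

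The mitochondrial sum did not follow the nuclear one in 2i/LIF. It was 31504, 28758 and 27825 CPM in +E+N and 33198, 27672 and 30651 in −E−N, which overlap, a mean change of 3.9%. In FCS/LIF it was 23306 and 24038 (+E+N), 22522 and 23645 (−N), 20887 and 20185 (−E), and 19694 and 20976 (−E−N). Its mean changed there by −13.2% for −E and −14.1% for −E−N, without overlap with +E+N. Leaving the mitochondrial genes out of the scaling gave 41 lower nuclear members in 2i/LIF −E−N in place of 38.

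**Figure D4:**
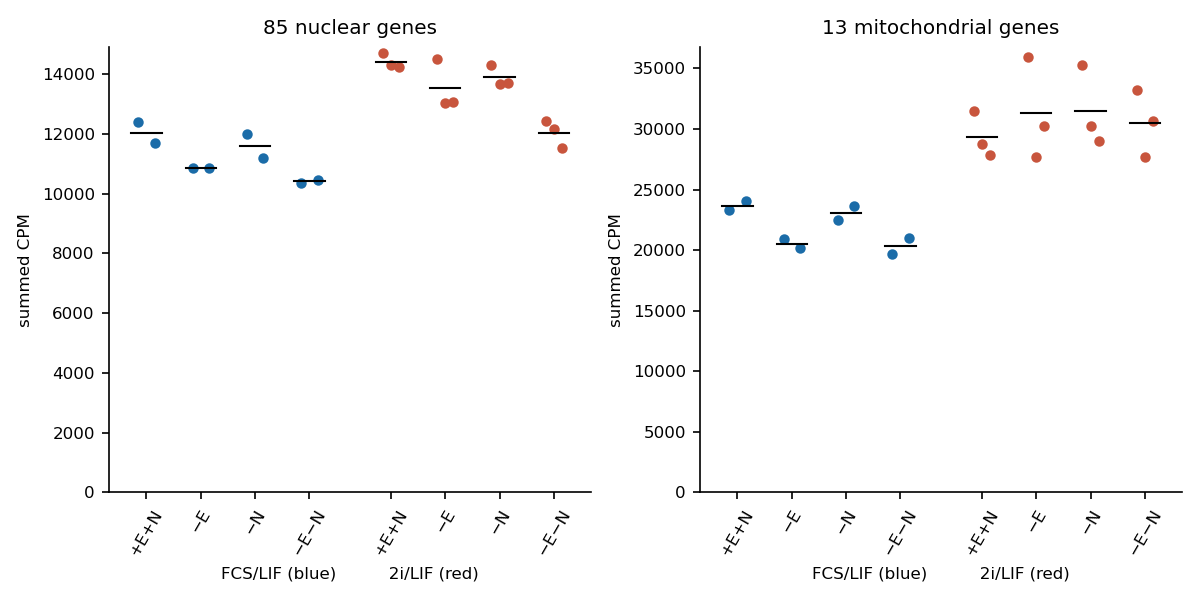
Summed CPM of nuclear and of mitochondrial members in each library (points) by state and medium, with black lines at the group means. Nuclear sums in −E−N lie below every +E+N library in both media, while mitochondrial sums in 2i/LIF overlap between states.

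The 4 subunits of complex II did not move together in 2i/LIF −E−N. Sdhb fell as given above and Sdhc, a membrane anchor, fell less (94.6, 94.2 and 96.3 CPM against 83.0, 76.6 and 71.7; −0.29 ± 0.07, adjusted p = 0.0072). Sdha, the flavoprotein that holds the succinate site, was higher (216, 191 and 196 against 226, 223 and 237; 0.20 ± 0.06, adjusted p = 0.0208). Sdhd, the other anchor, read 148, 144 and 139 against 150, 138 and 133 (−0.02 ± 0.10, adjusted p = 0.906). In FCS/LIF −E−N Sdhc (−0.40 ± 0.06, adjusted p = 0.000625) and Sdhb (−0.25 ± 0.07, adjusted p = 0.0148) were lower, and Sdha read 239 and 217 against 223 and 212 CPM (−0.09 ± 0.07, adjusted p = 0.347).

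Genes that encode alternative forms of 1 subunit also differed. The 3 c-subunit genes Atp5g1, Atp5g2 and Atp5g3 encode the same mature protein, and in 2i/LIF −E−N Atp5g1 was called lower, Atp5g3 passed the looser rule (458, 406 and 398 CPM against 350, 353 and 297; −0.32 ± 0.09, adjusted p = 0.0117) and Atp5g2 did not pass (297, 289 and 304 against 283, 296 and 273; −0.05 ± 0.05, adjusted p = 0.509). In FCS/LIF −E−N Atp5g1 (−0.53 ± 0.11, adjusted p = 0.00348) and Atp5g2 (−0.23 ± 0.05, adjusted p = 0.00504) passed and Atp5g3 did not (−0.10 ± 0.09, adjusted p = 0.408). Cox7a2, the widely used form of subunit VIIa, read 62.4, 58.0 and 58.1 CPM in 2i/LIF +E+N and 50.4, 52.9 and 46.0 in −E−N, short of the looser rule (−0.24 ± 0.10, adjusted p = 0.0598), beside the called fall of Cox7a1. Cox7a2l, a factor of supercomplexes, was at 69.9, 68.1 and 74.5 against 80.8, 79.3 and 80.6 (0.19 ± 0.08, adjusted p = 0.064). Of the subunit IV forms, Cox4i1 passed the looser rule in FCS/LIF −E−N (412 and 414 against 313 and 330 CPM; −0.38 ± 0.05, adjusted p = 0.000381) and in 2i/LIF −E−N (−0.21 ± 0.06, adjusted p = 0.0159), while Cox4i2 stayed between 0.145 and 2.53 CPM.

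The level of the members before any withdrawal was compared between media in +E+N, where medium and culture batch cannot be told apart. Of 94 members, 16 were called higher in 2i/LIF and 1 lower, where 34.7% of all genes were called (17.2% higher and 17.5% lower), and at the looser rule 61 were higher and 4 lower (30.9% and 29.4% of all genes). The median log2 difference was 0.33 over nuclear and 0.30 over mitochondrial members, 0.16 over the mitochondrial ribosomal protein genes and 0.01 over all genes. Cox7a1 had one of the largest called differences, at 12.3, 12.7 and 18.0 CPM in 2i/LIF against 3.55 and 2.66 in FCS/LIF (2.21 ± 0.22), and Cox7b2 the largest (3.44 ± 0.43), though it passed the filter through 2i/LIF only. Ndufs8 read 58.7, 56.5 and 59.0 against 25.6 and 20.5 (1.33 ± 0.10, adjusted p = 1.23e-08). The other higher calls, named after their values were seen where no rule named them, were Ndufa6, Ndufb5, Ndufb7, Ndufb8, mt-Nd4l, mt-Nd5, Sdhb, Uqcr10, Uqcrb, Cox5a, Cox6b1, Cox6b2 and mt-Atp8.

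Among the mitochondrial genes the medium difference ran in both directions at neighbouring genes. mt-Atp6 was the member called lower in 2i/LIF, at 736, 696 and 704 CPM against 1536 and 1404 (−1.05 ± 0.13, adjusted p = 2.77e-06), and mt-Atp8 was higher, at 82.3, 78.8 and 74.7 against 21.1 and 23.5 (1.82 ± 0.22, adjusted p = 2.58e-06). The annotated mt-Atp8 and mt-Atp6 share 43 bases, and mt-Nd4l and mt-Nd4 share 7, so reads can be divided between them by estimation and their single values are uncertain. Summed, mt-Atp8 and mt-Atp6 were at a mean of 791 CPM in 2i/LIF and 1492 in FCS/LIF, without overlap. On the length-corrected TPM scale the same sum went the other way, at a mean of 30198.5 in 2i/LIF and 21230.5 in FCS/LIF, also without overlap. The direction of this sum between media therefore depended on the scale. mt-Nd4l was called higher (306, 277 and 285 against 127 and 156; 1.03 ± 0.15), and the sum with mt-Nd4 was 37.9% higher.

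The responses of −E−N in FCS/LIF and 2i/LIF do not share libraries. Across 79 nuclear members the log2 fold changes had a Pearson r of 0.53 and 63 were below 0 in both media, and without Cox7a1 and Ndufa4l2 r was 0.45 over 77 genes. Across the 13 mitochondrial genes r was 0.21. These are descriptions across genes, which share libraries and scaling. The difference of the responses was tested gene by gene: at an adjusted p under 0.01, 3 of 94 members differed, 2 with a higher value in FCS/LIF and 1 with a lower one, where 13.2% of all genes differed (7.3% higher and 5.93% lower). Cox7a1 fell from 3.55 and 2.66 to 1.92 and 2.08 CPM in FCS/LIF, less than in 2i/LIF (difference, FCS/LIF minus 2i/LIF, 1.23 ± 0.31, adjusted p = 0.00774). Ndufb11, a membrane-arm subunit of complex I, read 53.3 and 54.1 against 42.4 and 48.6 in FCS/LIF −E−N, and 69.8, 76.1 and 79.1 against 89.4, 86.1 and 91.7 in 2i/LIF, opposite directions (difference −0.49 ± 0.11, adjusted p = 0.00415). Cox6b2, the testis form of subunit VIb, read 13.7 and 15.7 against 18.5 and 17.1 in FCS/LIF and 24.9, 27.6 and 28.1 against 23.1, 24.3 and 23.6 in 2i/LIF (difference 0.47 ± 0.12, adjusted p = 0.0081). None of the 3 calls held for every library left out: without FCS/LIF +E+N replicate 1 or −E−N replicate 1 the count was 0, and it was between 1 and 4 without each other library. The split of the calls also moved with the fit, to 5 higher and 1 lower with DESeq2, 16 higher and 0 lower with limma on log2(TPM + 1), and 1 higher and 7 lower with no filter on low counts.

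**Figure D5:**
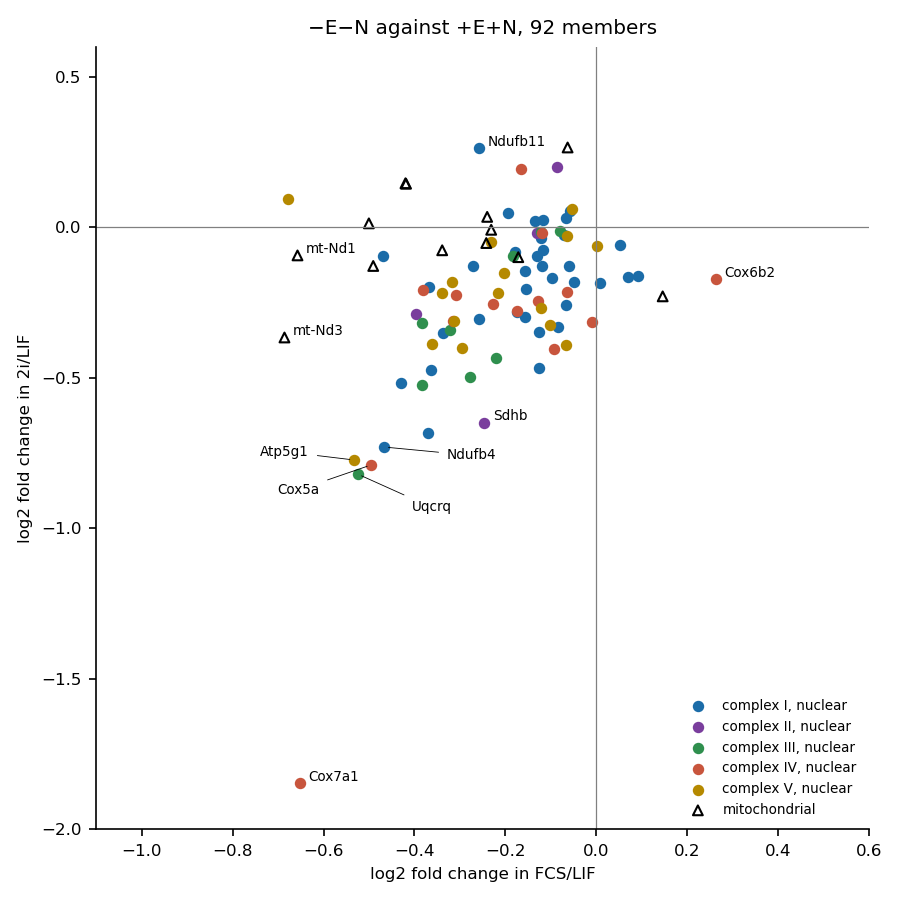
Log2 fold change of −E−N against +E+N for each member, FCS/LIF on the horizontal and 2i/LIF on the vertical axis, nuclear and mitochondrial members marked. Most nuclear members (63 of 79) lie below 0 on both axes, and Cox7a1 lies furthest down.

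The other genes of the pathway were read from fixed lists. At both limits, 9.56% of all genes were called lower in 2i/LIF −E−N. In FCS/LIF −E−N 18.8% of all genes were called and 6.4% called lower. None of the assembly factors of any complex was called in a state against +E+N at both limits. At the looser rule in 2i/LIF −E−N, 5 of 15 complex I assembly factors were lower and 1 higher. For complex IV, 4 of 21 were lower and 2 higher, where 21% of all genes were lower and 19.9% higher. In FCS/LIF −E−N, 6 of the 15 were lower and 0 higher, and 4 of the 21 lower and 2 higher. There 21.8% of all genes were lower and 24.9% higher. Of 12 genes of electron carriers and coenzyme Q synthesis, Coq3, a methyltransferase of the coenzyme Q pathway, was called lower in 2i/LIF −E−N (−0.63 ± 0.10, adjusted p = 0.000369) and Coq8a, an atypical kinase of that pathway, in FCS/LIF −E−N (−1.03 ± 0.12, adjusted p = 0.000185). Cycs, the electron carrier between complexes III and IV, passed the looser rule in 2i/LIF −E−N (−0.24 ± 0.09, adjusted p = 0.0482) but not in FCS/LIF. Among 7 tested regulators of nuclear mitochondrial genes, Gabpa, an Ets factor, was called lower in 2i/LIF −E−N (−0.65 ± 0.06, adjusted p = 6.18e-06). It passed the looser rule in 2i/LIF −E (−0.25 ± 0.06, adjusted p = 0.0278) and −N (−0.25 ± 0.06, adjusted p = 0.0215). In these states 3.82% and 5.91% of all genes were lower. Of 9 genes of mitochondrial transcription and replication, Tefm, the elongation factor of the mitochondrial polymerase, was called lower in FCS/LIF −E−N (−0.79 ± 0.08, adjusted p = 9.08e-05) and Polg, the mitochondrial DNA polymerase, higher (0.70 ± 0.06, adjusted p = 4.82e-05).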

How the data were processed

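RNA-seq of 20 libraries was analysed, and ChIP-seq samples were not analysed here. Per the labels and the study's methods, the authors aligned reads to mm10 with STAR and estimated counts per gene with RSEM, and deposited expected counts without normalization between libraries (Bowtie2 is also listed in the submitters' processing notes, and versions are not given in the sources used here). The authors' RSEM run also gave the deposited TPM values, which correct for length and total. RSEM divides reads shared by overlapping or near-identical genes by estimation. No column was left without a sample (0 unused).

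Expected counts were rounded. Groups came from the library labels. A gene entered a fit if some state had 20 or more counts in every replicate (15636 genes for FCS/LIF, 14355 for 2i/LIF). One model per medium held its 4 states, with edgeR 4.0.16 (R 4.3.3), TMM scaling and the quasi-likelihood test, and media were compared in a model of 8 groups and 20 libraries (16147 genes). Adjusted p-values are Benjamini-Hochberg over all genes tested, and ± after a log2 fold change is its SE. Comparisons of states and of media in +E+N were called at an adjusted p under 0.01 and a fold over 1.5, the limits of the study's methods, and interactions and differences of responses at an adjusted p under 0.01. The study describes each replicate as an independent experiment, and what libraries of the same number share is not given. Between +E+N and each single state of 2i/LIF the deviations of same-numbered libraries correlated above 0.1 for every number, so blocked counts are given beside those results. Replicate libraries differed by more than sampling noise (chi-square over its degrees of freedom 4.28 to 28.3). Alternatives were DESeq2 1.42.0, its size factors in edgeR, scaling without mitochondrial genes, no filter, limma 3.58.1 with a TPM pseudocount of 1 or 0.1 on the log2 scale, a replicate block, a looser threshold and each library left out. The scripts were tested on simulated counts.

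The members and lists were chosen with earlier results of these data known. Members named were the mitochondrial genes, those called, the highest and lowest nuclear log2 fold change of each complex in −E−N, isoform sets, the Sdh genes, and the 2 largest rises and falls of each other comparison (mean of at least 100 counts). At these depths Cox4i2 and Cox7b2 are measured with few counts, as is Ndufa4l2 in some libraries (10 to 498 counts over all libraries).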

Additional observations from a re-analysis of the deposited data

Results flagged for a closer look

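The change in −E−N against +E+N, which differ in both the line and Dox, differed between media, by the test of the difference in the fit of all 20 libraries, for 3 of 94 members. By the same test 13.2% of all genes differed, a larger share than among the members. Without FCS/LIF +E+N replicate 1 or FCS/LIF −E−N replicate 1 the count of members was 0. For Cox7a1 the log2 fold change of −E−N against +E+N was higher in FCS/LIF than in 2i/LIF by 1.23 ± 0.31 (SE, edgeR adjusted p = 0.00774), with all libraries of −E−N below those of +E+N in each medium. For Cox6b2 the difference was 0.47 ± 0.12 (adjusted p = 0.0081), with both FCS/LIF −E−N libraries above and all 3 of 2i/LIF −E−N below the +E+N range. For Ndufb11 it was −0.49 ± 0.11 (adjusted p = 0.00415), with both FCS/LIF −E−N libraries below and all 3 of 2i/LIF above the +E+N range. Medium and culture batch cannot be told apart in these differences.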

How the results depend on the processing

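With an adjusted p under 0.05 and no fold limit, the members called were 24 in FCS/LIF −E, 46 in FCS/LIF −E−N, 6 in 2i/LIF −E, 2 in 2i/LIF −N, 41 in 2i/LIF −E−N, 65 between media in +E+N and 11 for the difference of the −E−N response between media. Counts from here on are at the limits of the main calls unless 0.05 is named. Limma on log2(TPM + 1) and on log2(TPM + 0.1) gave 0 in place of 1 in FCS/LIF −E and 0 in place of 2 in FCS/LIF −E−N. For the difference of the −E−N response between media these gave 16 and 15 in place of 3. For that difference DESeq2 gave 6, no filter on low counts 8 and the replicate block 10. Both no filter and the block added mitochondrial genes, among them mt-Nd1, mt-Nd2 and mt-Co1. In 2i/LIF −E, DESeq2 called 1 (Cox7a1) and the replicate block 1 (Ndufa4l2) in place of 0. Cox8a in FCS/LIF −E−N turned from −0.17 to 0.0089 with limma on log2(TPM + 1) and also to 0.0089 on log2(TPM + 0.1), where on the first the median over all genes is 0.13. Leaving out each library in turn gave between 0 and 2 members in FCS/LIF −E, 0 and 0 in FCS/LIF −N, 2 and 4 in FCS/LIF −E−N, 0 and 0 in 2i/LIF −E, 0 and 0 in 2i/LIF −N, 6 and 6 in 2i/LIF −E−N, 0 and 0 for both interactions, 14 and 18 between media in +E+N, and 0 and 4 for the difference between media. The 6 called in 2i/LIF −E−N were also called by DESeq2. Under DESeq2, Cox6b1, Ndufb5 and mt-Nd5 were not called between media. Of the values of named members in all 10 comparisons under each setting, 7793 kept their status as called or not called. A further 50 passed where they had not, 75 no longer passed and 2 reversed in sign. Reversals were counted only where the main adjusted p was under 0.05. Of the values that newly passed, 32 were of the difference of the −E−N response between media and 12 of the difference between media in +E+N. Of those that no longer passed, 37 and 30 were of these 2 comparisons. Counts at 0.05 under settings other than the first were added after seeing the data. Same-numbered deviations correlated above 0.1 in 12 of 12 comparisons in FCS/LIF, with 2 numbers only, and in 17 of 18 in 2i/LIF (lowest 0.0073, replicate 2 between +E+N and −E−N), and a library correlated best with its own number in 24 of 24 and 34 of 36. With the replicate block, nuclear members lower at 0.05 were 32 in place of 19 in FCS/LIF −E, 40 in place of 36 in FCS/LIF −E−N, 12 in place of 5 in 2i/LIF −E, 14 in place of 2 in 2i/LIF −N and 47 in place of 38 in 2i/LIF −E−N. In FCS/LIF −N they were 4 in place of 0. Depth limits Cox7b2 and Cox4i2, whose values in single libraries rest on few counts. For Ndufa4l2 this holds in some libraries only, since its counts ran from 10 to 498.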

Other observations

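Between media in +E+N, some genes of the fixed lists were called, where 17.2% of all genes were called higher and 17.5% lower. Of 15 complex I assembly factors 1 was called higher, and of 21 tested for complex IV 3 higher and 1 lower. None of those of complexes II, III and V was called. Of 12 genes of electron carriers and coenzyme Q synthesis 3 were higher and 1 lower, and of 7 tested regulators 2 higher. The assembly factors Ndufaf5 (1.07 ± 0.18, adjusted p = 7.35e-05), Cox19, Coa7 and Coa6 were called higher in 2i/LIF by edgeR, and Sco2, a copper chaperone of complex IV, lower (−1.20 ± 0.24, adjusted p = 0.000407). Of the 2 Coq8 kinases, Coq8b was higher in 2i/LIF (1.21 ± 0.12, adjusted p = 1.94e-07) and Coq8a lower (−1.20 ± 0.19, adjusted p = 4.7e-05). Esrra, a receptor related to Esrrb, was higher in 2i/LIF (0.80 ± 0.12, adjusted p = 1.56e-05), as was the coactivator Ppargc1b (1.17 ± 0.25, adjusted p = 0.000604), while neither was called in a state against +E+N in either medium.

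Ndufa4l2, a hypoxia-linked paralogue of Ndufa4, varied widely between replicates: in 2i/LIF +E+N it stood at 0.545, 7.46 and 8.04 CPM, and in −E at 3.50, 16.5 and 17.2, with replicate 1 lowest in each state. Its log2 fold change in 2i/LIF −E was 1.21 ± 0.87 (adjusted p = 0.479).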
